A study of Homo sapiens with 6 samples.

Results

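The 9 genes described here encode transcription factors that specify the myeloid blood lineages: SPI1, CEBPA, CEBPB, CEBPE, GFI1, RUNX1, MYB, IRF8 and GATA2. They were chosen by gene symbol, all 9 were found among the 18798 genes of the count table, and all 9 had enough counts to be tested. RNA was sequenced from 6 libraries of U937, an established human monocytic leukaemia line that carries a PICALM-MLLT10 gene fusion, grown in medium with 10% fetal bovine serum and selected with 500 µg/ml geneticin. The 3 Control libraries came from separate lines transduced with control plasmids. The 3 ΔNSPs libraries were each made from an independent clone depleted at the same time of CTSG, ELANE and PRTN3, the genes of the neutrophil serine proteases cathepsin G, neutrophil elastase and proteinase 3. Each ΔNSPs library stands for 1 clone, and nothing in the labels says whether a Control line was also grown from a single cell. The comparison asks whether these factors differed between the clones and the Control lines. The p-values measure the spread between these lines and clones.

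Myeloid cells take their identity from a small set of DNA-binding proteins that act in combination. PU.1, the product of SPI1, and the C/EBP proteins switch on receptors, granule proteins and enzymes of monocytes and neutrophils. RUNX1, MYB and GATA2 act in stem and progenitor cells, and GFI1 and IRF8 influence the choice between the neutrophil and the monocyte fate. The genes of the neutrophil serine proteases are themselves known targets of PU.1, C/EBP proteins and MYB.

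Count totals ran from 11476619 to 13782854 per library, so that 3 counts corresponded to 0.214 to 0.26 CPM (counts scaled to library size, with the trimmed mean of M values, TMM). These floors cover counting error only. CTSG and ELANE were lower in each clone than in every Control line, at 45.2 to 136 CPM against 1895 to 2752 CPM for CTSG and 1.89 to 41.8 CPM against 969.6 to 1325 CPM for ELANE, and PRTN3 was at 0.855 to 63.2 CPM against 147 to 539 CPM. Across all 14797 tested genes, edgeR called 1 gene higher and 2 lower in ΔNSPs at an adjusted p under 0.05, and DESeq2 called 247 higher and 268 lower. ΔNSPs clone 1 stood apart from the other clones: without it, edgeR called 928 genes. Control line 1 also stood apart within its group. The chi-square of its counts per degree of freedom was 17.5 and 15.1 against lines 2 and 3, and 7.13 between these. Deviations of log2 CPM from the group mean in Control line 1 correlated with those of clones 1, 2 and 3 at -0.43, 0.26 and 0.22. RNA was measured in bulk, in which fewer cells of a type and less RNA per cell cannot be told apart.

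CEBPB and RUNX1 were the factors that differed most between the groups, and in both the difference lay in ΔNSPs clones 2 and 3. In edgeR, 0 of the 9 genes passed an adjusted p of 0.05, against 0.0203% of all tested genes (0.00676% higher, 0.0135% lower). At the unadjusted p of 0.05, 3 of the 9 stood higher (CEBPB, CEBPE and RUNX1) and 0 lower in edgeR, against 9.23% and 8.60% of all tested genes. DESeq2 called 2 of the 9 higher, CEBPB and RUNX1, and 0 lower, against 1.91% and 2.07% (3.98% in all) of the genes to which it gave an adjusted p. With limma voom 0 of the 9 passed, against 0.0135% of tested genes, 0.00676% in each direction. Without clone 1, edgeR called 2 of the 9, CEBPB and RUNX1, both higher, against 6.17% of tested genes in all and 3.04% in that direction. In 3 of the 9 genes (SPI1, CEBPB and CEBPE) every clone lay above every Control line, as in 12.2% of all tested genes, and in 0 did every clone lie below, as in 11.7%. The median log2 fold change of the 9 was 0.20, against 0.0023 over all tested genes.

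**Figure D1:**
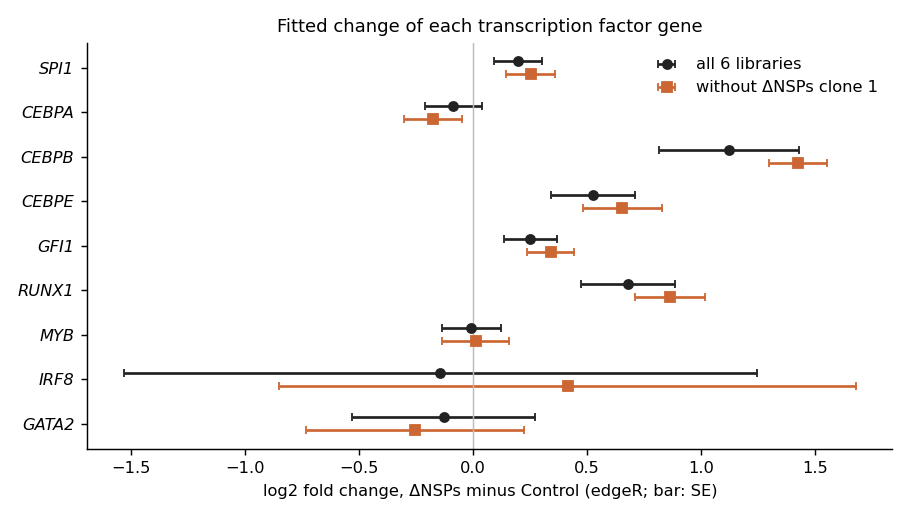
Fitted log2 fold change of each gene, ΔNSPs minus Control, from edgeR (x axis; bars are SE) with all 6 libraries (circles) and without ΔNSPs clone 1 (squares). CEBPB lies at 1.12 with all libraries and at 1.43 without clone 1, and the bars of IRF8 are the widest of the 9, with an SE of 1.39.

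CEBPB encodes C/EBP-beta, a factor of monocytes and macrophages that is induced by inflammatory signals. The gene (ENSG00000172216) consists of a single exon on chromosome 20, at 50190734 to 50192689 of GRCh38 on the plus strand. It was at 64.3, 74.9 and 75.7 CPM in Control lines 1, 2 and 3 and at 81.4, 213 and 174 CPM in clones 1, 2 and 3. Clone 1 thus lay just above the Control lines, while clones 2 and 3 stood at more than any other library. The group means were 156 ± 67.5 CPM in ΔNSPs and 71.7 ± 6.35 CPM in Control (SD, n = 3 each), a log2 fold change of 1.12 (SE 0.31). DESeq2 called this difference (adjusted p = 0.00637), whereas edgeR gave an adjusted p of 0.178 and limma voom one of 0.0806. Without clone 1 the edgeR log2 fold change was 1.43 (SE 0.13; adjusted p = 0.00403), and over the other libraries left out singly the adjusted p lay between 0.233 and 0.532.

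Much of the surrounding chromosome was also higher in those clones. Among the 79 expressed genes within 10 Mb of CEBPB, the median log2 ratio to the Control mean was -0.039 in clone 1, 0.56 in clone 2 and 0.55 in clone 3. The median of these genes was 0.066, -0.020 and -0.039 in Control lines 1 to 3. In clone 2, 75 of these genes lay above their Control mean, in clone 3 it was 74, and in clone 1 it was 32. CEBPB itself was at log2 ratios of 0.18, 1.56 and 1.27 in the 3 clones, which is 1.00 above the median of its neighbours in clone 2 and 0.72 above it in clone 3. In clone 2, 1 of the 79 neighbours had a larger ratio than CEBPB, and in clone 3 there were 2. The part of this regional shift in the CEBPB difference was not tested.

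The antisense gene CEBPB-AS1, which shares 765 bases of its span with CEBPB, was at 17.8, 21.0 and 19.4 CPM in the Control lines and at 23.0, 61.2 and 53.4 CPM in clones 1, 2 and 3. It thus had the same order of clones as CEBPB (log2 fold change 1.24; edgeR adjusted p = 0.174). Whether the reads were counted by strand is not given in the sources used here, so reads of the pair cannot be told apart.

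RUNX1, the DNA-binding partner of CBFB and a frequent target of mutation in leukaemia, lies on chromosome 21 at 34787801 to 36004667 on the minus strand (ENSG00000159216). It was at 117, 87.8 and 88.4 CPM in Control lines 1 to 3 and at 112, 193 and 165 CPM in clones 1 to 3. Clones 2 and 3 lay above every Control line, and clone 1 lay below Control line 1, so the groups overlapped. The means were 157 ± 40.8 CPM in ΔNSPs and 97.7 ± 16.7 CPM in Control, a log2 fold change of 0.68 (SE 0.21), called by DESeq2 (adjusted p = 0.0427) and not by edgeR (adjusted p = 0.189) or limma voom (adjusted p = 0.0806). Without clone 1 the edgeR log2 fold change was 0.86 (SE 0.15; adjusted p = 0.0271). As at CEBPB, the neighbours were shifted in the same clones. Over 75 expressed genes within 10 Mb the median log2 ratio was -0.054, 0.32 and 0.40 in clones 1 to 3, beside 0.20, 0.97 and 0.75 for RUNX1. The median of these neighbours was 0.16, -0.077 and -0.086 in Control lines 1 to 3, so it was also above 0 in Control line 1. In each of clones 2 and 3, 6 of these neighbours had a larger ratio than RUNX1. The part of that shift was not tested here either. RUNX1 is transcribed from several promoters, and counts per gene do not separate their transcripts.

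**Figure D2:**
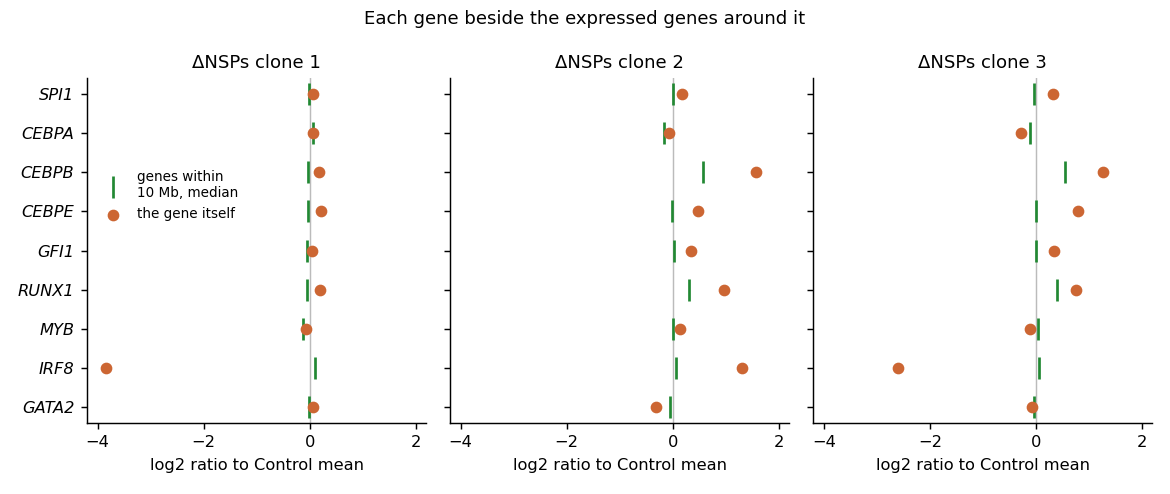
Log2 ratio to the Control mean in each ΔNSPs clone (x axis, pseudocount of 0.5 CPM) for each of the 9 genes (circles) and the median of the expressed genes within 10 Mb of it (vertical marks). In clones 2 and 3 the marks at CEBPB lie at 0.56 and 0.55 and those at RUNX1 at 0.32 and 0.40, and the circles lie further right.

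The bases just upstream of annotated starts of these 2 genes are shown because both genes were highest in the same clones. Each line holds 250 bases, 5′ to 3′ on the strand of the gene, from RefSeq on GRCh38.p14. Capitals mark GGAA, the core bound by PU.1 and other ETS factors, and GGGCGG, the GC box, on either strand. The windows overlap no exon of their gene in GENCODE v29. The RUNX1 window lies inside the span of the gene, at an internal start, and counts per gene do not show which starts were used. The CEBPB window lies inside the span of CEBPB-AS1.
CEBPB, chr20:50190333-50190582, plus strand: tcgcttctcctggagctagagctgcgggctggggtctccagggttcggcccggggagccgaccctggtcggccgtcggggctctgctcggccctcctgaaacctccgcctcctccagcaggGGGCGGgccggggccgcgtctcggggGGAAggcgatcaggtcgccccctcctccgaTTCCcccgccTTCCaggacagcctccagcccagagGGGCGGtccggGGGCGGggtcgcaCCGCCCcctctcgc
RUNX1, chr21:34888700-34888949, minus strand: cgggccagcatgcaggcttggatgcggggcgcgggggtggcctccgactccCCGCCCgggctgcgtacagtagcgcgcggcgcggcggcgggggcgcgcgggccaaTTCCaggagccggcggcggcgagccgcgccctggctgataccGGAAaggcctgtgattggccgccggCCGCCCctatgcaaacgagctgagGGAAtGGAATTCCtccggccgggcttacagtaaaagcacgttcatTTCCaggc

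Both windows are rich in G and C, at 75.6% for CEBPB and 71.2% for RUNX1. GGAA occurs 3 times at CEBPB and 6 times at RUNX1, and 92.7% of the 35116 windows of this length in the RefSeq table hold it at least once. GGGCGG occurs 4 times at CEBPB and 2 times at RUNX1, against at least 1 match in 42.6% of all windows. The motifs searched for other factors had 0 matches on either strand in both windows, and no motif of GFI1 was searched. Those searched were TTGCNNAA for the C/EBP proteins, which 9.05% of all windows hold, TGTGGT for RUNX proteins (11%) and TAACNG for MYB (17.6%). The others were AGATAA for the family of GATA2 (9.17%) and the paired element of the interferon regulatory factors (3.02%). A match of letters is not a binding site.

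Of the other C/EBP genes, CEBPA did not have the order of libraries seen in CEBPB, while CEBPE, like CEBPB, was highest in clones 2 and 3. CEBPA (ENSG00000245848, chromosome 19, 33299934 to 33302564, minus strand) encodes the factor that commits progenitors to the granulocyte and monocyte lineages. It was at 339, 407 and 410.4 CPM in Control lines 1 to 3 and at 402, 368 and 319 CPM in clones 1 to 3. Control line 1 and clone 3 were the lowest, and the groups overlapped. The means were 363 ± 41.8 CPM in ΔNSPs against 386 ± 40.2 CPM in Control, and the fitted log2 difference was -0.087 (SE 0.13) with an edgeR adjusted p of 0.746. The neighbours of CEBPA within 10 Mb had median log2 ratios of 0.054, -0.16 and -0.11 in clones 1 to 3, over 133 genes, and within 5 Mb these were 0.064, -0.29 and -0.31. CEBPA is covered on the other strand by AC008738.3, at 126 to 156 CPM, and AC008738.5, at 75.9 to 104 CPM, and without strand information reads of CEBPA and these genes cannot be told apart.

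CEBPE (ENSG00000092067, chromosome 14, 23117304 to 23119616, minus strand) encodes the C/EBP protein of late granulocyte maturation, which controls secondary granule genes. It was at 20.8, 15.9 and 18.5 CPM in the Control lines and at 21.4, 26.0 and 32.3 CPM in clones 1 to 3. The groups did not overlap, although clone 1 lay close above Control line 1. The means were 26.6 ± 5.50 CPM against 18.4 ± 2.49 CPM, a log2 difference of 0.53 (SE 0.18) that did not pass in edgeR (adjusted p = 0.217) or DESeq2 (adjusted p = 0.141). Without clone 1 it was 0.66 (SE 0.17; edgeR adjusted p = 0.0633). Around CEBPE the median log2 ratio of 71 genes was -0.024, -0.013 and 0.0076 in clones 1 to 3.

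SPI1 and GFI1 varied little over the 6 libraries. SPI1 (ENSG00000066336, chromosome 11, 47354860 to 47378576, minus strand) was at 126, 115 and 125 CPM in the Control lines and at 127, 138 and 153 CPM in clones 1 to 3. The groups did not overlap, but clone 1 lay close above Control line 1. The log2 fold change was 0.20 (SE 0.11; edgeR adjusted p = 0.366). GFI1 (ENSG00000162676, chromosome 1, 92474762 to 92486876, minus strand) encodes a repressor needed for neutrophil development. It was at 232, 206 and 210.0 CPM in the Control lines and at 222, 276 and 274 CPM in clones 1 to 3. Clones 2 and 3 were the highest libraries, and clone 1 fell within the Control range. The log2 fold change was 0.25 (SE 0.12; edgeR adjusted p = 0.305), and the highest library was 1.34-fold above the lowest for both genes.

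MYB and GATA2, factors of immature blood cells, showed no direction that held across tools. MYB (ENSG00000118513, chromosome 6, 135181315 to 135219173, plus strand) sustains the proliferation of progenitors and is high in many leukaemia lines. It was at 497, 428 and 374 CPM in the Control lines and at 415, 477 and 401 CPM in clones 1 to 3. The clones all lay within the Control range, and the log2 fold change was -0.0067 (SE 0.13; edgeR adjusted p = 0.985). MYB-AS1, on the other strand of the same locus, was at 43.1 to 52.3 CPM. GATA2 (ENSG00000179348, chromosome 3, 128479427 to 128493185, minus strand), a factor of stem cells and of the mast cell lineage, had 27, 13 and 19 counts in the Control lines and 24, 16 and 18 in clones 1 to 3. This corresponds to 2.30, 0.942 and 1.65 CPM and to 1.71, 1.21 and 1.52 CPM. The antisense gene GATA2-AS1, which shares 3974 bases of its span with GATA2, was at 5.07 to 11.7 CPM. As at CEBPB, reads of GATA2 and MYB and of their antisense genes cannot be told apart. The counts of GATA2 were few, and the clones all lay within its Control range (log2 fold change -0.13, SE 0.40, edgeR adjusted p = 0.891).

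**Figure D3:**
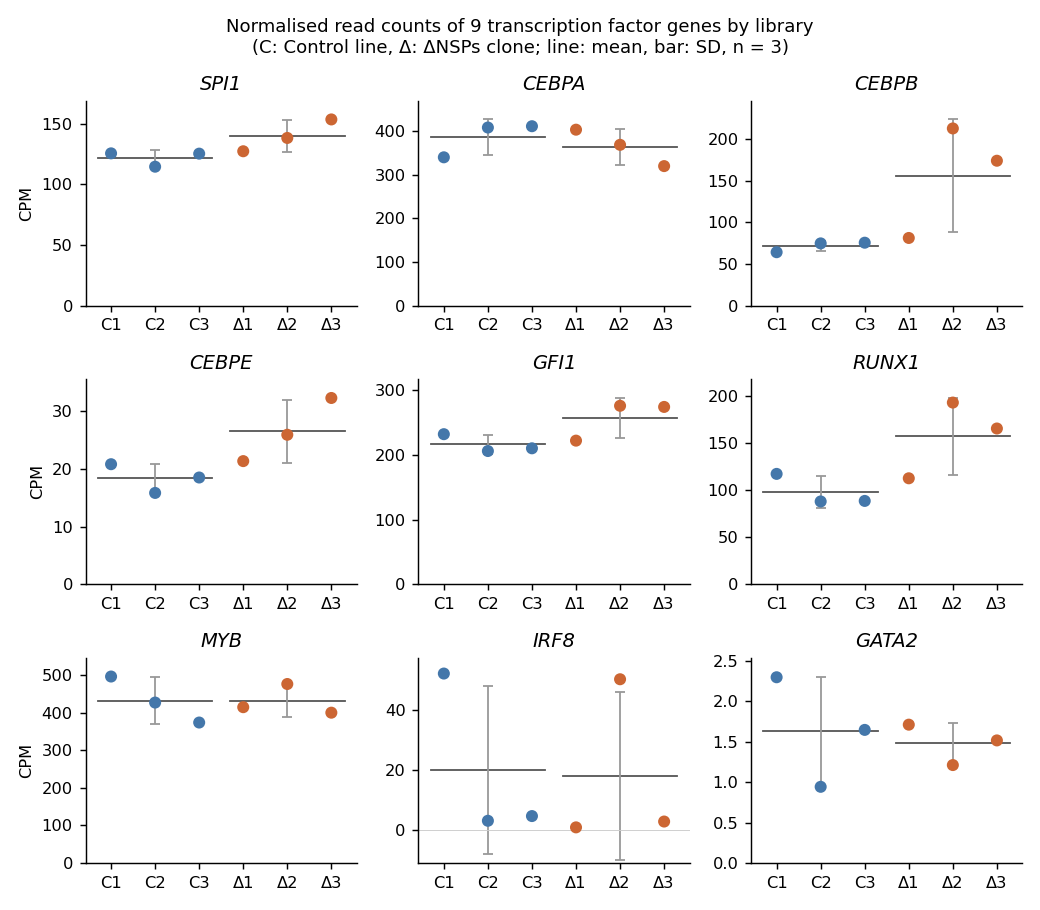
Normalised read counts (CPM, y axis, a linear scale of its own in each panel) of the 9 genes in each library (x axis: C1 to C3 are Control lines, Δ1 to Δ3 are ΔNSPs clones). Lines mark group means and bars the SD (n = 3). CEBPB and RUNX1 are highest in clones 2 and 3, whereas IRF8 is high in Control line 1 and clone 2 at 52.0 and 50.1 CPM.

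IRF8 was low in 4 libraries and high in 1 of each group. Its product directs progenitors towards monocytes and dendritic cells and away from neutrophils. The gene (ENSG00000140968) lies on chromosome 16 at 85898803 to 85922609 on the plus strand. It was at 52.0 CPM (611 counts) in Control line 1 and at 50.1 CPM (662 counts) in clone 2. In Control lines 2 and 3 it was at 3.12 and 4.68 CPM (43 and 54 counts), and in clones 1 and 3 at 0.927 and 2.86 CPM (13 and 34 counts). The highest library was 56.1-fold above the lowest, and 0.399% of the tested genes had a larger span on the log2 scale. The group means were 18.0 ± 27.8 CPM in ΔNSPs and 19.9 ± 27.8 CPM in Control, so the spread within each group exceeded its mean. The fitted log2 difference, -0.14 with an SE of 1.39 (edgeR adjusted p = 0.969), turned to 2.21 without Control line 1 and to -3.41 without clone 2, with adjusted p = 0.473 and 0.325. DESeq2 gave no p-value for IRF8. The 68 expressed genes within 10 Mb had medians of 0.10, 0.062 and 0.056 in clones 1 to 3, while IRF8 itself was at log2 ratios of -3.84, 1.31 and -2.60.

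The genes with the pattern most like that of IRF8 were PPP1R27, a regulator of protein phosphatase, and IMPACT, a regulator of translation under amino acid shortage. Likeness was the root mean square difference in centred log2 CPM over the 6 libraries, among 11546 other tested protein-coding genes. It was 0.69 for PPP1R27 and 0.74 for IMPACT, and 7 genes lay within 1. PPP1R27 was at 35.4, 4.71 and 8.75 CPM in the Control lines and at 3.56, 77.8 and 3.71 CPM in the clones. IMPACT was at 12, 0.797 and 0.953 CPM in the Control lines and at 0, 19.8 and 0.0842 CPM in the clones. Both were thus highest in Control line 1 and clone 2. For CEBPB the nearest gene was CHST2 (0.098), which was at 41.1 CPM in clone 2 and 29.6 CPM in clone 3 and at 12.7 to 16 CPM elsewhere. TGM5 came next at 0.13. For RUNX1 these were SRSF6 (0.050) and HSPA1L (0.060), for CEBPE DOHH (0.039) and KRI1 (0.051), and for GATA2 NDUFA4L2 (0.11) and USP51 (0.13). The number of genes within 0.25 was 695 for RUNX1, 1672 for CEBPE, 83 for GATA2, 30 for CEBPB and 0 for IRF8.

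**Figure D4:**
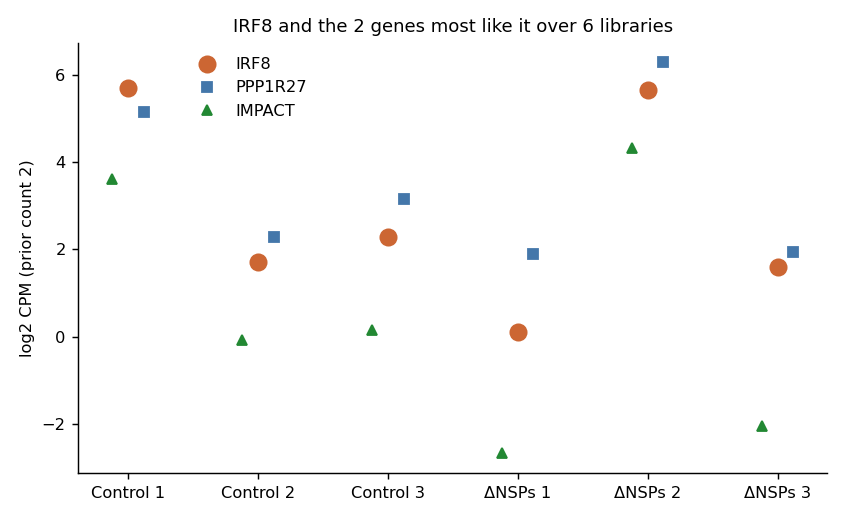
Log2 CPM (y axis, prior count of 2) of IRF8, PPP1R27 and IMPACT in each library (x axis). All 3 genes are highest in Control line 1 and ΔNSPs clone 2, and IMPACT is at 0 counts in clone 1.

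Per length, CEBPA was the most abundant of the 9 transcripts. Levels were divided by the merged exon length of each gene, which gives CPM per kilobase. In Control the order was CEBPA (147 ± 15.3 CPM per kilobase), MYB (78.8 ± 11.2), GFI1 (65.4 ± 4.23), SPI1 (58.9 ± 3.03), CEBPB (36.6 ± 3.25), CEBPE (11.9 ± 1.61), RUNX1 (6.28 ± 1.07), IRF8 (3.86 ± 5.38) and GATA2 (0.365 ± 0.152). The Control ranges of MYB and GFI1 overlapped, as did those of RUNX1 and IRF8, and the other neighbours in this order did not. CEBPA was exceeded by 2.13% of the tested genes in Control and GATA2 by 94.2%. In the ΔNSPs clones CEBPB came second in the order, at 79.8 ± 34.5 CPM per kilobase, but its range of 41.6 to 109 overlapped those of MYB, GFI1 and SPI1. The merged exons of RUNX1 span 15.574 kilobases against 7.274 for its longest transcript, so its level per length depends on that choice: with the longest transcript it was 13.4 CPM per kilobase in Control, above CEBPE.

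Other transcription factors of the blood lineages were taken from a list of 60, of which 55 were measured and 50 tested. None passed in edgeR (0 of 50), where 10 stood higher and 2 lower by the unadjusted p, against 9.23% and 8.60% of all tested genes. DESeq2 called 2 higher and 0 lower, against 1.91% and 2.07%. Their median log2 fold change was 0.070. ETS1, an ETS factor of lymphoid cells, was at 64.1, 62.4 and 60.0 CPM in the Control lines and at 83.2, 94.2 and 120.4 CPM in clones 1 to 3 (log2 fold change 0.67, SE 0.14; DESeq2 adjusted p = 0.00637). RXRA, the partner of retinoic acid and vitamin D receptors, was at 103, 119 and 117 CPM and at 146, 145 and 167 CPM (log2 fold change 0.43, SE 0.11; DESeq2 adjusted p = 0.0361). All clones exceeded all Control lines for both genes, clone 1 included. Both are named for their DESeq2 call in the same libraries, so this order adds no separate evidence. Every clone lay above every Control line in 10 of the 50 factors, against 12.2% of all tested genes. In 5 of them every clone lay below, against 11.7%.

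The factors with the highest levels per length were MYC, MYBL2, LYL1 and CEBPZ. MYC was at 499 ± 54.4 CPM in Control and 503 ± 126 CPM in ΔNSPs, LYL1 at 178 ± 21.2 and 228 ± 42.4 CPM, and CEBPZ at 200.2 ± 13.7 and 205 ± 16 CPM, with no call in any of them. MYBL2, a relative of MYB on chromosome 20, was at 296, 236 and 221 CPM in the Control lines and at 255, 397 and 444 CPM in clones 1 to 3. It lies within 10 Mb of CEBPB. Its log2 ratios to the Control mean were 0.019, 0.66 and 0.82 in clones 1 to 3. The medians of the expressed genes around CEBPB were -0.039, 0.56 and 0.55. The part of that regional shift in MYBL2 was not tested. CBFB, the partner of RUNX1, was at 148 ± 13.2 CPM and 173 ± 17.9 CPM (log2 fold change 0.22; edgeR adjusted p = 0.353). KLF4, a monocyte factor, was at 3.57, 7.32 and 7.19 CPM in the Control lines and at 6.84, 2.57 and 2.86 CPM in the clones. EGR1 was at 2.13, 0.362 and 0.953 CPM and at 2.00, 5.37 and 4.72 CPM (log2 fold change 1.82, SE 0.61; edgeR adjusted p = 0.208). GFI1B, a relative of GFI1, stood at 1.91 CPM or less in every library, and CEBPD and GATA1 were not analysed here.

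Without clone 1, edgeR called 8 of these factors, 5 higher (MYBL2, ETS1, HOXA9, HHEX and NFE2) and 3 lower (MEIS1, BCL11A and STAT5B), against 3.04% and 3.13% of tested genes. Those that DESeq2 had not called are named after their values were seen. NFE2 was at 41.5, 18.6 and 25.1 CPM in the Control lines and at 21.5, 77.9 and 71.3 CPM in the clones. MEIS1, a partner of HOXA9 in leukaemic cells, was at 55.7, 87.4 and 87.4 CPM and at 79.8, 38.4 and 32.3 CPM. In both genes clone 1 resembled Control lines 2 and 3, and Control line 1 lay between these and clones 2 and 3.

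Cofactors and modifiers of the factors were taken from a list of 20, with 19 measured and tested. In edgeR 0 passed, while by the unadjusted p 3 stood higher and 1 lower, against 9.23% and 8.60% of all tested genes. Their median log2 difference was 0.13. CBFA2T3, a corepressor and the 1 call of DESeq2 (which called 1.91% of all genes higher), was at 20.6, 19.3 and 23.8 CPM in the Control lines and at 33.1, 40.1 and 31.4 CPM in the clones (log2 fold change 0.72, SE 0.14; DESeq2 adjusted p = 0.00656; edgeR adjusted p = 0.16). KDM1A, the histone demethylase that GFI1 recruits, was at 238 ± 15.1 CPM in Control and 193 ± 19.2 CPM in ΔNSPs (log2 fold change -0.30, SE 0.11; edgeR adjusted p = 0.226). TRIM28, HDAC1 and SMARCA4, the others with the highest levels per length, had log2 fold changes of 0.10, 0.051 and 0.26. PICALM and MLLT10, the partners in the fusion of this line, had log2 fold changes of -0.12 and -0.0098.

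Of 40 genes known to carry regulatory sites of the 9 factors, 37 were measured and 32 tested. In edgeR 0 were higher and 1 was lower, the depleted gene CTSG, against 0.0203% of all tested genes in either direction. DESeq2 called 1 higher and 3 lower, against 1.91% and 2.07%. The median log2 fold change was 0.25. FCER1G, the gamma chain of Fc receptors, was at 21.7, 17.9 and 19.8 CPM in the Control lines and at 21.0, 62.4 and 54.5 CPM in clones 1 to 3 (DESeq2 adjusted p = 0.0122; edgeR adjusted p = 0.181). Like CEBPB, it was at its highest in clones 2 and 3. FCGR2A, which encodes another Fc receptor, was lower in every clone, at 17.5 to 25.2 CPM against 27.5 to 34.7 CPM (DESeq2 adjusted p = 0.044). The remaining DESeq2 calls were the depleted genes CTSG and ELANE.

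Of the receptor and granule genes chosen by symbol, those below had no edgeR or DESeq2 call, and DESeq2 gave no adjusted p for CSF1R and MPO. LYZ, the lysozyme gene, was at 109, 109 and 116 CPM in the Control lines and at 95.5, 229 and 164 CPM in the clones. CSF3R, the receptor of granulocyte colony-stimulating factor, was at 69.1 to 115 CPM in Control and at 56.5, 129 and 139 CPM in clones 1 to 3. ITGAM was at 2.13 to 5.80 CPM and at 5.13, 11.7 and 8.59 CPM, and CSF1R at 0.362 to 1.62 CPM and at 0.998, 4.24 and 2.78 CPM. MPO stood at 3.71 CPM or less in every library. AZU1, the azurocidin gene beside PRTN3, was at 437 ± 82.5 CPM in Control and 287 ± 89.8 CPM in ΔNSPs (log2 fold change -0.61, SE 0.25; edgeR adjusted p = 0.261). In LYZ, CSF3R, ITGAM and CSF1R, clones 2 and 3 were above every Control line and clone 1 was not. How many of all tested genes had this order was not counted, so it is not shown to be particular to these genes. Without clone 1, edgeR called 3.04% of all tested genes higher. Other receptor genes of the list, named here after their values were seen, did not have that order. CSF2RA, a chain of the receptor of granulocyte-macrophage colony-stimulating factor, was at 13.5 to 19.4 CPM in Control and at 17.6, 11.6 and 9.77 CPM in clones 1 to 3. IL6R, the interleukin 6 receptor gene, was at 226 to 248 CPM and at 234, 222 and 215 CPM. Clones 2 and 3 were thus below every Control line in both, with no edgeR or DESeq2 call.

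**Figure D5:**
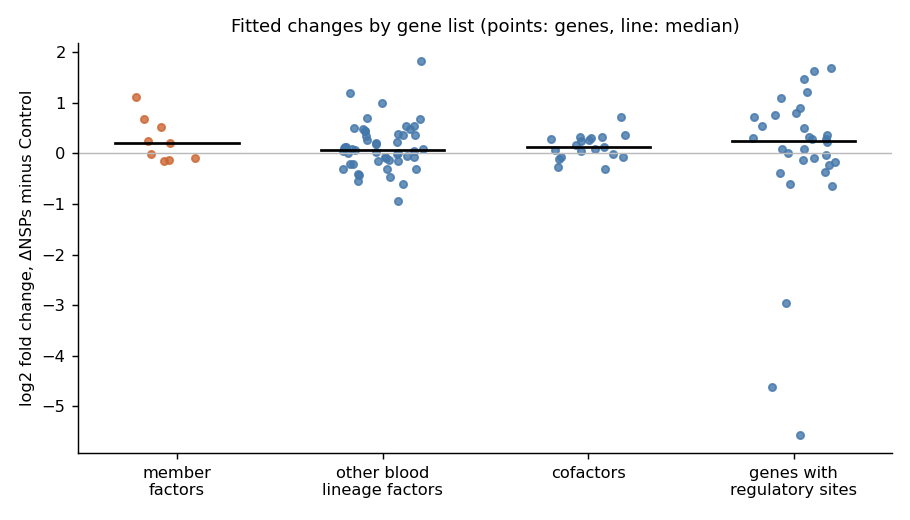
Fitted log2 fold change, ΔNSPs minus Control (y axis, edgeR), of the tested genes in each list (x axis; points are genes, spread sideways for clarity, and lines are medians). The medians lie at 0.20, 0.070, 0.13 and 0.25, and the 3 lowest points on the right are the depleted genes ELANE, CTSG and PRTN3.

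Markers of monocytic and other blood cells were set beside these values. Of 12 monocytic markers, CD33, CD4, PTPRC and LYZ had the higher levels, while CD14, CD86 and CD68 had at most 0.337, 0.428 and 1.14 CPM, so the mature monocyte marker CD14 was near 0 in every library. The summed level of the 12 ran from 576 to 617 CPM in Control and from 433 CPM in clone 1 to 933 CPM in clone 2. In edgeR 0 of the 9 tested passed, while by the unadjusted p 4 stood higher and 0 lower, against 9.23% and 8.60% of all tested genes. DESeq2 called 1 higher (FCER1G, also described above) and 0 lower, against 1.91% and 2.07%. Without clone 1, edgeR called 4 of the 9 higher (FCER1G, TYROBP, LYZ and PTPRC), against 3.04% of tested genes. Among other lineages, the measured markers summed to 86.9 to 149 CPM in Control and 92.5 to 129 CPM in ΔNSPs for erythroid cells, of which HBB made up 73.9 to 133 CPM and 84.6 to 114 CPM. For B cells they summed to 49.8 to 89.9 CPM and 28.0 to 72.1 CPM. Of these, CD79B was at 22.7, 46.5 and 51.9 CPM in the Control lines and at 42.1, 10.5 and 0 CPM in the clones, and PAX5 at 8.51 to 18.8 CPM and at 8.41, 7.49 and 1.52 CPM. T cell and megakaryocyte markers summed to at most 1.21 and 3.71 CPM in any library. TPSAB1, a mast cell tryptase gene, was at 57.7 ± 15.6 CPM in Control and 32.7 ± 3.81 CPM in ΔNSPs (DESeq2 adjusted p = 0.0126). The part of these markers in the differences of the 9 factors was not tested.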

How the data were processed

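The authors deposited raw counts per Ensembl gene for 6 libraries. The tools named, per the submitters' processing notes, are HTSeq 0.11.1, HISAT2 2.0.0, FastQC and SAMtools 1.5.9, with the build GRCh38.p12. The sources used here do not give the annotation release or the strand setting. Each gene had at least 10 counts in all. Symbols, positions and lengths came from GENCODE v29 (18771 of 18798 identifiers matched).

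Differences were tested with edgeR 4.0.16 in R 4.3.3 (TMM, filterByExpr, quasi-likelihood test, two-sided), with Benjamini-Hochberg adjustment over 14797 genes. DESeq2 1.42.0, limma 3.58.1 (voom with sample quality weights), other scalings and filters, the replicate number as a block, and leaving out each library were alternatives. The edgeR procedure was also run on counts simulated for each gene independently, from the means and dispersions of these data. Such counts do not carry differences that many genes share in single lines or clones. Groups came from the sample titles. The 9 genes and the lists were chosen with earlier results of these data known.

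Named in each list were the calls of edgeR and DESeq2, the 4 genes with the highest CPM per kilobase, and 17 genes picked by symbol, of which 1 is not reported here. Likeness named 2 genes for each factor with a log2 span over 1. Windows held the genes whose mean reached 8 CPM within 10 Mb of a gene's start, with a pseudocount of 0.5 CPM.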

Additional observations from a re-analysis of the deposited data

How the results depend on the processing

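CEBPB and RUNX1 kept their direction in all 13 alternatives and were past the threshold in DESeq2 and without ΔNSPs clone 1. SPI1, CEBPA, CEBPE and GFI1 kept their direction and had no call in any. With limma voom the log2 fold changes of MYB, IRF8 and GATA2 turned to 0.047, 0.022 and 0.015. Leaving out 1 library at a time, they ran from -0.10 to 0.10, from -3.41 to 2.21 and from -0.42 to 0.20. The count of genes past the threshold, 3 with all libraries, was 515 in DESeq2 and 0 to 928 with 1 library left out (0 without Control line 2 or 3, where 1408 and 1413 genes had an unadjusted p below 0.05, and 928 without clone 1). Among the other factors, cofactors and genes with regulatory sites, DESeq2 called 2 of 46, 1 of 18 and 4 of 28, against 3.98% of all genes. Leaving out 1 library gave 0 to 8, 0 to 1 and 0 to 6. The highest counts came without clone 1, at 8 of 51, 1 of 19 and 6 of 34, against 6.17% of tested genes. Those 6 included the depleted genes CTSG, ELANE and PRTN3, and the 4 of DESeq2 included CTSG and ELANE. With the replicate number as a block, edgeR called 0 genes, with 1779 at an unadjusted p under 0.05, and 0 with regulatory sites. The numbers did not pair the libraries: the deviations of same-numbered libraries correlated at -0.43, -0.16 and -0.14. Windows of 5 Mb moved the mean shift over the clones at CEBPE from -0.0097 to 0.043 and at CEBPA from -0.075 to -0.18. With the longest transcript in place of merged exons, the level per length in Control was 86.8 CPM per kilobase for SPI1, above GFI1 at 75.6. Depth limits GATA2, at 13 to 27 counts, and IRF8 in clone 1, at 13.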
